A study of Mus musculus with 6 samples.

Results

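The tumour necrosis factor (TNF) ligand and receptor superfamilies were examined in cultured peritoneal macrophages of old and young mice. Members were taken by symbol: Tnf and every protein-coding gene whose symbol begins with Tnfsf (ligands) or Tnfrsf (receptors). The annotation holds 33 such genes, 13 ligands and 20 receptors, and 31 of them had a value among the 19973 genes of the table. Tnfrsf17 and Tnfrsf19 were not analysed here. The old group was 18 months and the young group 2 months of age, with 3 libraries each, and all donors were male C57BL/6 mice, an inbred laboratory strain. Both groups had received 200 µg of zymosan A, a yeast cell wall preparation that starts a self-limiting peritonitis, and peritoneal cells were taken by lavage after 72 hours. Cells of both groups were cultured overnight in medium with L-cell supplement, washed free of unattached cells, and kept with vehicle (phosphate-buffered saline) for 6 hours. Libraries with resolvin D2 were not analysed here. The design text names 3 mice a group, with triplicate sequencing for every animal. Whether a library is a mouse or a repeat is not stated, and the p-values reflect only the differences among these libraries, which may be technical in part.

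Members of the ligand family are mostly type II membrane proteins that act as trimers, on the cell surface or after release by a protease. Their receptors fall into those with a cytoplasmic death domain, those that recruit TRAF adaptors directly, and decoys that bind ligand without signalling. In macrophages Tnf is a central product of microbial stimulation, and Tnfrsf11a (RANK), the receptor of osteoclast differentiation, is carried by myeloid precursors. Several other members serve lymphocytes, among them Tnfrsf13c (the BAFF receptor) in B cells and Tnfrsf4 and Tnfrsf18 in T cells.

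The regions just upstream of 5 members are shown. Results below rest on the ligand Tnf, the most abundant receptor Tnfrsf1b, the decoy receptor Tnfrsf23 and the single receptor that was lower in old (Tnfrsf21). Tnfrsf8 did not pass and is shown for its match to the NF-kB consensus. It was the single gene with such a match among the 14 tested members that had a RefSeq window. Tnfrsf26 had no such window and is not shown. Each sequence is the 250 bases before the RefSeq start on build GRCm38.p6, written 5′ to 3′ on the gene's own strand, and capitals mark matches to the NF-kB consensus (searched on both strands) or to TATAAA (searched on the gene's strand). Tnf lies at chr17:35202008-35202257 (minus strand), Tnfrsf1b at chr4:145246871-145247120 (minus), Tnfrsf23 at chr7:143685876-143686125 (minus), Tnfrsf21 at chr17:43016305-43016554 (plus) and Tnfrsf8 at chr4:145315165-145315414 (minus).
Tnf: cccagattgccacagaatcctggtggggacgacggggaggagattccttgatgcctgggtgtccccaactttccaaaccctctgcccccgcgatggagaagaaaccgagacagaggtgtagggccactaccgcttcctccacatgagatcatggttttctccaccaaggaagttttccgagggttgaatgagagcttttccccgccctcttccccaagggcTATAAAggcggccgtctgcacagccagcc
Tnfrsf1b: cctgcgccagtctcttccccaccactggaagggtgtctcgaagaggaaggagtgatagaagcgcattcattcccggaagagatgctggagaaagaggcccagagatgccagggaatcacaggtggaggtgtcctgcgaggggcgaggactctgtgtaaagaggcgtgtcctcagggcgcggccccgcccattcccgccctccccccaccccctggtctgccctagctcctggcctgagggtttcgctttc
Tnfrsf23: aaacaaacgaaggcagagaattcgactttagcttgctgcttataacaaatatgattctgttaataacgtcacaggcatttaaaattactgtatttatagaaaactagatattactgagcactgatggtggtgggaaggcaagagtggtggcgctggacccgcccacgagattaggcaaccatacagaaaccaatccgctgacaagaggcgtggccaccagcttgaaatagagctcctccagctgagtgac
Tnfrsf21: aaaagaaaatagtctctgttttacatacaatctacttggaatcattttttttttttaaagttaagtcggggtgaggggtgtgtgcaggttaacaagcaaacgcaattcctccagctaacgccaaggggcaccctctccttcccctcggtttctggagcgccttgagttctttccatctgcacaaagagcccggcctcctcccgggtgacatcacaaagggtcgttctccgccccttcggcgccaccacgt
Tnfrsf8: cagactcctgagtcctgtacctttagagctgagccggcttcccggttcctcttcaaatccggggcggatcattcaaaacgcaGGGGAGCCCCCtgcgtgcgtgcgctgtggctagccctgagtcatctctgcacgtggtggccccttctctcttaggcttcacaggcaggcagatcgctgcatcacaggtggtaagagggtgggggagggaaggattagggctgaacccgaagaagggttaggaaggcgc
RefSeq windows were found for 26 of the 33 members. The NF-kB consensus occurred in 3 of these 26 (Tnfrsf8, Tnfrsf9 and Tnfrsf25), against 8.23% of 27025 genes in the promoter table. TATAAA occurred in 3 (Tnf, Tnfrsf17 and Tnfsf18), against 8.94%. The capitals in Tnfrsf8 cover overlapping matches on both strands. In Tnf the TATAAA began 29 bases before the start. These matches describe the letters of the windows alone.

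Read totals, recovered from the deposited values, lay between 8163000 and 13008000 per library. On a principal component analysis the ages separated on the first component, with 71.5% of the variance, and the libraries numbered 3 stood apart from the others of their group on the second, with 18.2%. Macrophage markers were abundant in every library, with Csf1r at a mean of 19751 normalized counts in old and 16537 in young. Of 8 macrophage markers 6 were called higher in old, with a median log2 fold change of 0.38. Marker lists of B cells (8 of 8 tested genes called higher in old) and mast cells (5 of 5) were also higher in old. Over all tested genes 17.9% were called higher in old. Of 7 neutrophil and 5 dendritic cell markers 1 each was tested, S100a8 at 1.46 and Ccr7 at 1.88 on the log2 scale. Both were called higher. The other genes of these 2 lists had few reads or no value. Those with a value were not called in a fit without a filter on the mean. Of 3 tested mesothelial and fibroblast markers 1 was higher, 1 was lower and 1 did not pass. Ccr7, the mast cell marker Mcpt4 and all B cell markers except Ighm and Cd22 reached the mean of 10 needed for a test only through their old libraries. These genes therefore had to differ. Summed B cell markers were 1368 to 2658 normalized counts in old and 120.0 to 123 in young libraries. Summed mast cell markers were 535 to 607 in old and 38.2 to 63.4 in young. Since RNA of whole cultures was measured, fewer cells of a type and less RNA per cell cannot be told apart. The part of these other cells, and of the macrophage markers' own difference, in the results below was not tested.

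Of the 31 members with a value, 19 had a mean of at least 10 normalized counts over the 6 libraries and were tested. Old libraries had more transcript of 10 of these 19 and less of 1, and 8 did not pass (limma, Benjamini-Hochberg adjusted p under 0.05 over all 11795 tested genes). Over all tested genes 35.5% were called, 17.9% higher and 17.6% lower in old. Of the 6 tested ligands 3 were higher in old (Tnf, Tnfsf12 and Tnfsf13) and 3 did not pass. Of the 13 tested receptors 7 were higher, namely Tnfrsf1a, Tnfrsf1b, Tnfrsf11a, Tnfrsf13c, Tnfrsf14, Tnfrsf23 and Tnfrsf26, and 1 was lower, Tnfrsf21. Tnfrsf13c reached the filter only through its old libraries and so had to differ; without it 9 of 18 members, and 6 of 12 receptors, were higher. The median log2 fold change was 0.38 for the tested ligands and 0.44 for the tested receptors, beside 0.00014 for all tested genes. The receptor median includes Tnfrsf13c. Without it the receptor median lies between 0.28 (Tnfrsf1a) and 0.44 (Tnfrsf14), a span that holds that of the ligands. The medians therefore do not rank receptors above ligands. Fold changes are old minus young on the log2(normalized count + 1) scale, which understates the change of low genes. In 12 of the 19 tested members the old and young libraries did not overlap (11 of 18 without Tnfrsf13c), against 47.5% of all tested genes. Without both libraries numbered 3, 11 members were again called: Tnfrsf13b was added, Tnfrsf14 was lost, and the other 10 were the same.

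**Figure D1:**
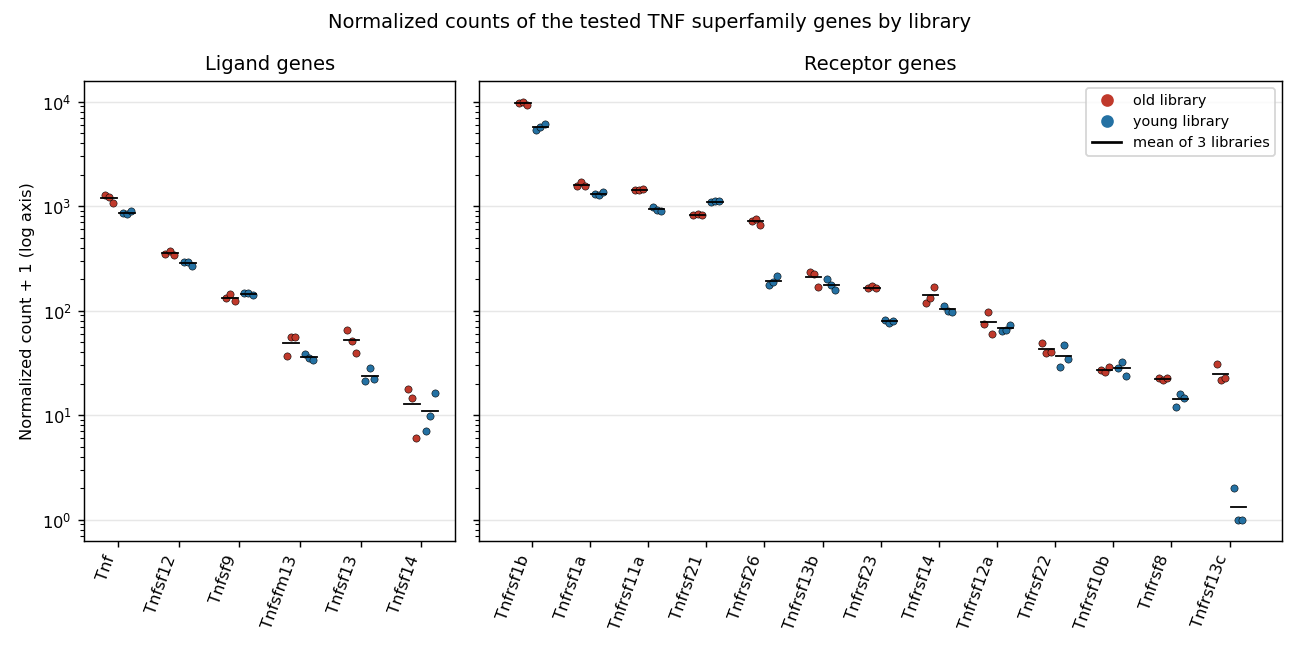
Normalized counts plus 1 on a log axis for the 6 tested ligand genes and 13 tested receptor genes, with a point per library (red old, blue young) and a line at each group's mean of 3. The old points of Tnf, Tnfrsf1b, Tnfrsf11a, Tnfrsf26, Tnfrsf23 and Tnfrsf13c lie above all young points, and those of Tnfrsf21 lie below them.

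**Figure D2:**
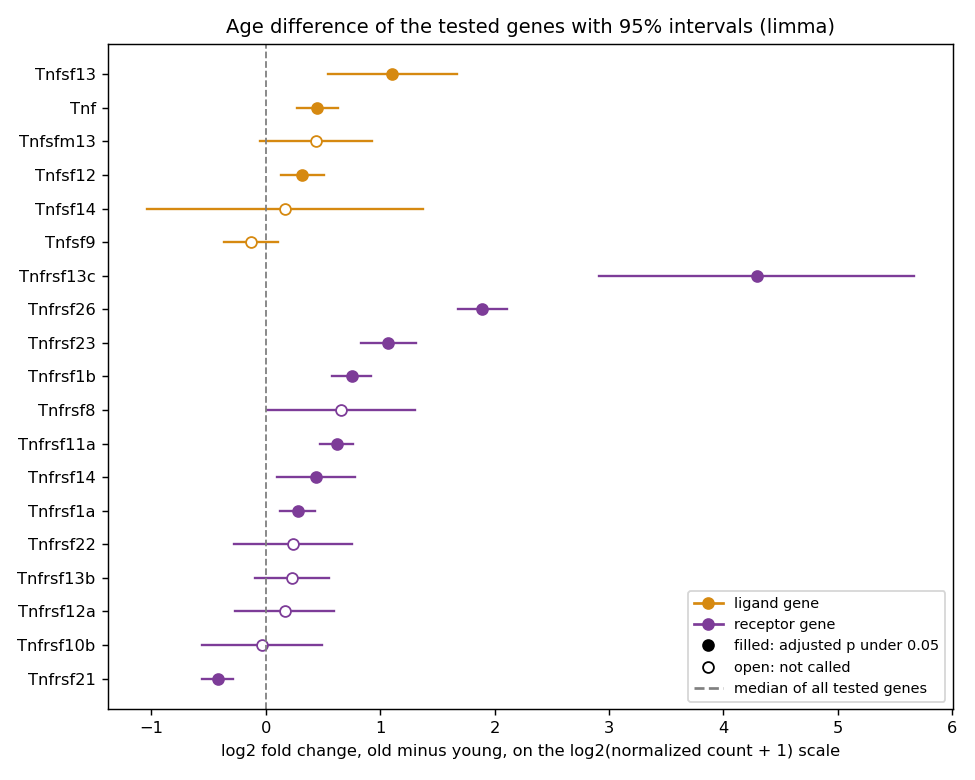
Log2 fold change (old minus young) with 95% intervals from limma for the 19 tested genes, filled where the adjusted p was under 0.05. Tnfrsf13c at 4.29 and Tnfrsf26 at 1.89 lie farthest to the right, Tnfrsf21 at -0.42 is the single filled point left of the median of all tested genes.

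Tnf and both of its receptors were higher in old cultures, Tnfrsf1b by the larger ratio. Tnf (chromosome 17, 35199381 to 35202007, minus strand) had 1275, 1212 and 1076 normalized counts in old and 861, 839 and 901 in young libraries. The lowest old library stood above the highest young one, and the ratio of means was 1.37 (log2 fold change 0.45 ± 0.08 SE, limma adjusted p = 0.00183). Tnfrsf1b, which encodes TNF receptor 2, a TRAF-binding receptor without a death domain (chromosome 4, 145213463 to 145246870, minus strand), had 9751, 9930.0 and 9225 in old and 5332, 5775 and 6090.0 in young libraries. Its groups were far apart relative to their spread, with a ratio of 1.68 and a log2 fold change of 0.75 ± 0.08 (SE; adjusted p = 6.91e-05 in limma). With quantile normalization its log2 fold change was 0.48 (adjusted p = 5.65e-05). Tnfrsf1a, the death domain receptor TNF receptor 1 (chromosome 6, 125349362 to 125362484, plus strand), had 1542, 1692 and 1544 in old and 1312, 1268 and 1356 in young libraries. It rose by a ratio of 1.21 (log2 fold change 0.28 ± 0.07 SE, limma adjusted p = 0.0104), and this call was lost without young replicate 2 (adjusted p = 0.0630).

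Per kilobase of merged exon, Tnfrsf1b stood above all other members in both ages. Its level was 2524 ± 96.1 normalized counts per kb in old and 1501 ± 99.7 in young (SD, n = 3 each). Tnf followed with 725 ± 62.2 and 529 ± 19.2, and Tnfrsf1a with 615 ± 33.1 and 506 ± 17.1. In young libraries the ranges of Tnf and Tnfrsf1a overlapped, from 512 to 550 and from 489 to 523 per kb. The ratio of Tnfrsf1b to Tnfrsf1a per kb was 4.29, 3.98 and 4.05 in old and 2.76, 3.09 and 3.05 in young libraries. The old and young ratios did not overlap (exact permutation test, 2-sided p = 0.1, the smallest that 3 against 3 can give).

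Tnfsf12 (TWEAK) and Tnfsf13 (APRIL), which lie side by side on chromosome 11, were higher in old, and their reads cannot be fully separated. Tnfsf12 (69686250 to 69695849, minus strand) had 350.1, 373 and 337 normalized counts in old and 292, 291 and 264 in young libraries. Its log2 fold change was 0.32 ± 0.08 (SE; adjusted p = 0.0155 in limma), with no overlap between ages. Without old replicate 1 or old replicate 2 its adjusted p was 0.0506 and 0.0671. Tnfsf13 (69682846 to 69685784, minus strand), a survival factor for B cells and plasma cells, had 64.5, 50.4 and 38.1 in old and 20.1, 27.2 and 21.1 in young libraries. The lowest old value was well above the highest young one, with a log2 fold change of 1.11 ± 0.25 (SE; adjusted p = 0.00752 in limma). Tnfsfm13, a joint gene model that runs through both loci on the same strand, shares 60.0% of the exon bases of Tnfsf13 and 48.3% of those of Tnfsf12. Tnfsfm13 itself had 48.4 ± 10.9 and 34.8 ± 2.19 normalized counts (SD, n = 3 each) and did not pass (log2 fold change 0.44, 95% interval -0.05 to 0.93). The noncoding gene Tnfsf13os on the opposite strand covers 13.5% of the exon bases of Tnfsf13. Its mean was 7.04 in young and 37.3 in old, a difference of 30.3 normalized counts beside 28.2 for Tnfsf13. The strand setting of the counting is not given in the sources used here, so reads of both genes cannot be told apart where they overlap.

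The tested receptors of these ligands did not pass. Tnfrsf12a, the TWEAK receptor, had 76.4 ± 19.2 and 66.7 ± 5.18 normalized counts (SD, n = 3 each) and a log2 fold change of 0.17 (95% interval -0.27 to 0.60; limma adjusted p = 0.533). Tnfrsf13b (TACI), which binds APRIL and BAFF, had 233, 222 and 169 in old and 199, 175 and 156 in young libraries. Its groups overlapped, with a log2 fold change of 0.23 (95% interval -0.10 to 0.55; limma adjusted p = 0.249), and it was called higher without old replicate 3 (0.37, adjusted p = 0.0223). Tnfsf13b, which encodes BAFF, was low, at 4 to 7 reads in the old libraries and 7 to 10 in the young ones.

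Tnfrsf11a, the receptor of the osteoclast factor RANKL, rose in old. It had 1438, 1416 and 1461 normalized counts in old and 984, 914 and 907 in young libraries (chromosome 1, 105780718 to 105847981, plus strand). The spread within each age was small beside the gap, and the log2 fold change was 0.62 ± 0.06 (SE; adjusted p = 7.12e-05 in limma). Its ligand gene Tnfsf11 (RANKL) and the soluble decoy gene Tnfrsf11b (osteoprotegerin) were near zero, with 0 to 3 and 0 to 2 reads in every library. The receptor was measured at a level of 240.3 ± 3.77 per kb in old and 156 ± 7.10 in young (SD, n = 3 each).

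Of the 3 TRAIL receptor relatives on chromosome 7, 2 rose in old and the one between them did not pass. Tnfrsf26, Tnfrsf22 and Tnfrsf23 lie in a row on the minus strand within 78.2 kb, and Tnfrsf22 and Tnfrsf23 are known in the mouse as decoy receptors for TRAIL. Tnfrsf26 (143607659 to 143628722) had 721, 750.5 and 664 normalized counts in old and 176, 185 and 213 in young libraries. This was a ratio of 3.72, with a log2 fold change of 1.89 ± 0.09 (SE; adjusted p = 7.29e-07 in limma). Tnfrsf23 (143665809 to 143685872) had 164, 170.1 and 163 in old and 80.5, 75.5 and 78.6 in young libraries. Its ratio of means was 2.12, with a log2 fold change of 1.07 ± 0.11 (SE; adjusted p = 5.55e-05 in limma). Tnfrsf22 (143634806 to 143649661), between them, had 47.8, 38.5 and 39.4 in old and 28.2, 45.6 and 33.8 in young libraries. Its groups overlapped and it did not pass (log2 fold change 0.24, 95% interval -0.27 to 0.75; limma adjusted p = 0.443). Transcripts of Tnfrsf22 and Tnfrsf23 are partly identical: 17.3% of the 50-base stretches of Tnfrsf22 also occur in Tnfrsf23, and 18.0% the other way round, so reads between these genes are uncertain. Tnfrsf26 shared 0 such stretches with either. The ratio of Tnfrsf26 to Tnfrsf23 per kb was 5.03 to 5.43 in old and 2.69 to 3.34 in young libraries (exact permutation test, 2-sided p = 0.1, the smallest possible).

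A noncoding gene on the opposite strand, E230032D23Rik, starts just inside Tnfrsf26 and overlaps exons of Tnfrsf26 (3.33% of its exon bases) and Tnfrsf23 (4.14%). Its level was 36.8 ± 5.67 in old against 5.71 ± 1.14 in young cultures (normalized counts, SD, n = 3 each), or 2.50 higher on the log2 scale (adjusted p = 0.000276 in limma). Its difference of means was 31.1 normalized counts, beside 520.4 for Tnfrsf26 and 87.3 for Tnfrsf23. Of the 10 tested genes within 300 kb of the cluster, chosen by position, 3 were higher in old, 2 were lower and 5 did not pass, beside 35.5% called among all tested genes. The 3 higher ones were Tnfrsf26, Tnfrsf23 and E230032D23Rik. The first 2 are members around which the window was set. E230032D23Rik reached the filter only through its old libraries and so had to differ. Of the 6 others outside the cluster 2 were called, both lower. The next gene on the side of Tnfrsf26, Cars (cysteinyl-tRNA synthetase), was lower at -0.94, as was Dhcr7, the last step of cholesterol synthesis, at -0.50.

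**Figure D3:**
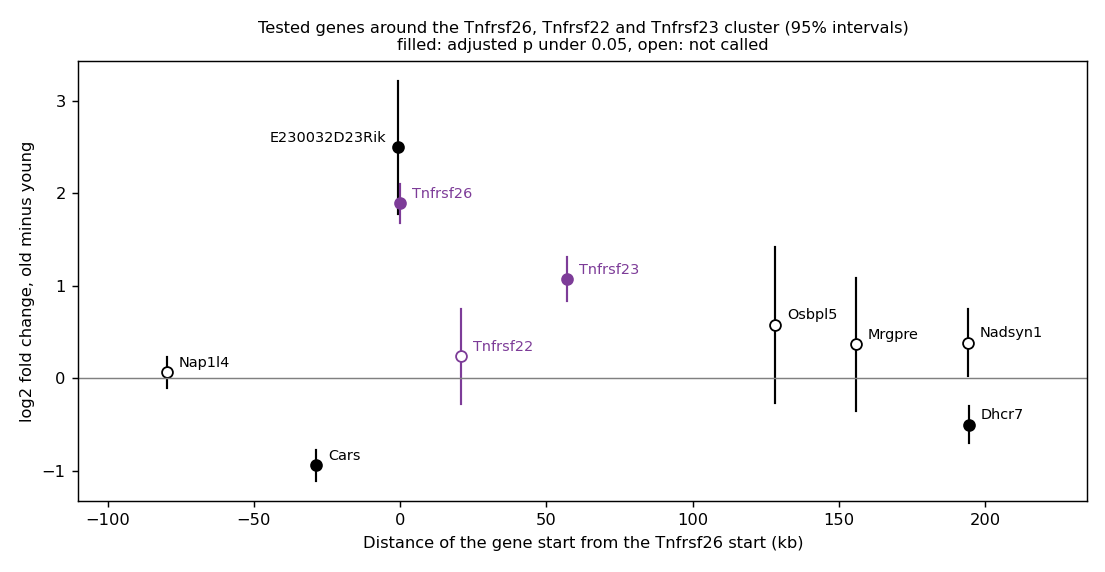
Log2 fold change (old minus young, with 95% intervals from limma) of the 10 tested genes around the receptor cluster on chromosome 7, against the distance of each gene start from the Tnfrsf26 start in kb. Tnfrsf26, E230032D23Rik and Tnfrsf23 are filled and above 0, Tnfrsf22 between them is open, and Cars and Dhcr7 are filled and below 0.

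Tnfrsf21, the death domain receptor DR6, was the single tested member that fell. It had 823, 835 and 815 normalized counts in old and 1087, 1107 and 1117 in young libraries (chromosome 17, 43016555 to 43089189, plus strand). The 3 old libraries lay within a narrow band below the young ones, and the log2 fold change was -0.42 ± 0.06 (SE; adjusted p = 0.000575 in limma). Among the death domain receptors, Tnfrsf1a rose and Tnfrsf21 fell. The TRAIL receptor Tnfrsf10b had 26.3 ± 1.58 and 27.2 ± 4.39 normalized counts (SD, n = 3 each; log2 fold change -0.03, 95% interval -0.56 to 0.49), and Tnfrsf25 (DR3) was near zero. The TRAIL gene Tnfsf10 had 1 to 5 reads in old and 1 to 8 in young libraries.

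Tnfrsf14, the receptor of LIGHT and a partner of BTLA, stood at the edge of the threshold. It had 117, 132 and 169 normalized counts in old and 111, 99.1 and 95.5 in young libraries, with old replicate 3 the highest. The groups did not overlap and the log2 fold change was 0.44 ± 0.15 (SE; adjusted p = 0.0483 in limma). The call was lost under 10 of 15 alternatives, and without old replicate 3 the log2 fold change was 0.29 (adjusted p = 0.0980), and without both libraries numbered 3 it was 0.25 (adjusted p = 0.152). Its ligand gene Tnfsf14 (LIGHT) varied among libraries, with 16.7, 13.7 and 5.08 in old and 6.04, 8.77 and 15.2 in young, and did not pass (log2 fold change 0.17, 95% interval -1.04 to 1.38). Tnfsf9, the ligand of CD137, had 132 ± 9.81 and 145 ± 3.28 normalized counts (SD, n = 3 each) and a log2 fold change of -0.13 (95% interval -0.37 to 0.11; limma adjusted p = 0.366). It shares 14.9% of its exon bases with Gm11110 on the other strand. Its receptor gene Tnfrsf9 was low, at 2 to 6 reads in the old libraries and 1 to 7 in the young ones. Tnfrsf8 (CD30), which lies 20.3 kb from Tnfrsf1b, had 21.5, 20.5 and 21.6 in old and 11.1, 14.9 and 13.5 in young libraries. These groups did not overlap, but the log2 fold change of 0.66 ± 0.29 (SE) did not pass (limma adjusted p = 0.105).

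**Figure D4:**
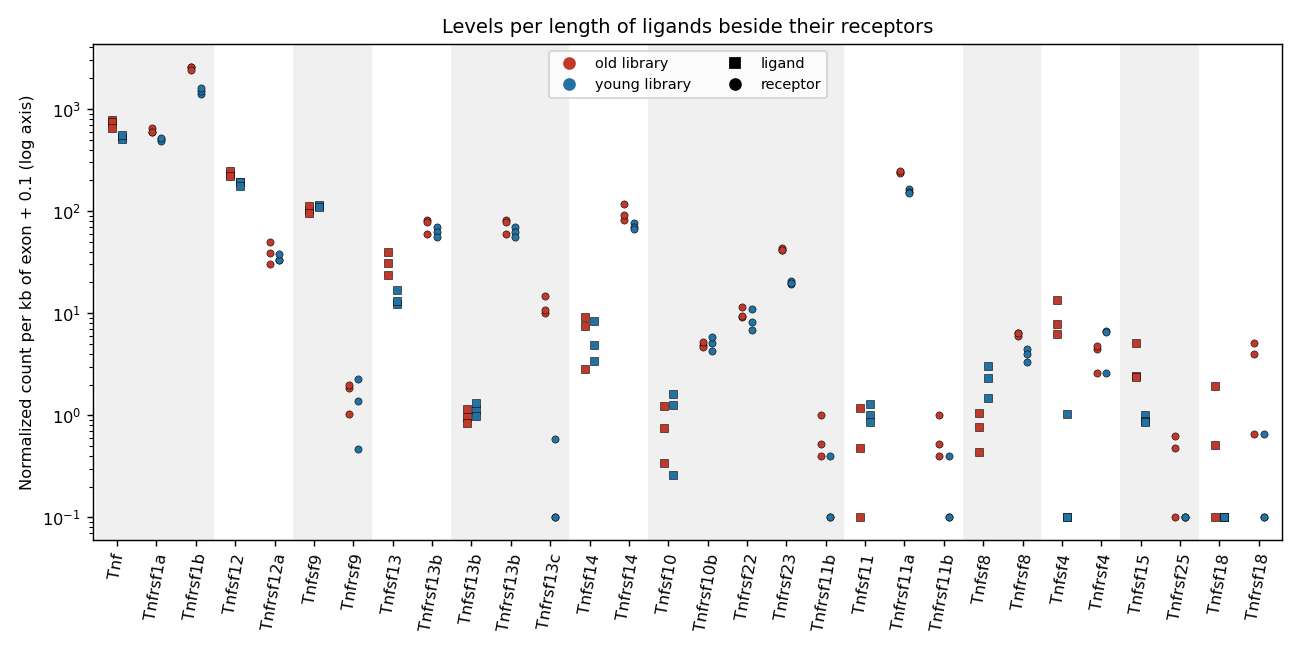
Normalized counts per kb of exon plus 0.1, on a log axis, for each ligand (squares) beside its receptors (circles), with a point per library (red old, blue young); shaded bands set off the pairs. Tnf and its receptors are high on both sides, Tnfrsf11a is high beside a near-zero Tnfsf11, and Tnfsf9 stands above its receptor Tnfrsf9.

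Set side by side per kb, summed receptors exceeded summed ligands in every library. Summed ligands were 1135 ± 86.3 per kb in old and 869 ± 7.67 in young, and summed receptors 4094 ± 137 and 2704 ± 100.1 (SD, n = 3 each). The ratio of receptors to ligands was 3.44, 3.59 and 3.81 in old and 3.00, 3.13 and 3.21 in young libraries. Tnf made up 62.8% to 65.2% of the ligand sum in old and 59.5% to 62.8% in young. Tnfrsf1b made up 61.1% to 62.2% of the receptor sum in old and 53.5% to 56.8% in young, so both sums mainly follow these 2 genes.

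Tnfrsf13c, the BAFF receptor of B cells, differed most between the ages, from very few reads. It had 25, 24 and 17 reads in old and 1, 0 and 0 in young libraries, or 29.9, 20.5 and 21.6 against 1.01, 0 and 0 normalized counts (chromosome 15, 82221743 to 82224369, minus strand). The gene was nearly silent in young, and passed the filter on low values only through its old libraries. The pooled ratio was 78.4 with an exact 95% interval of 13.6 to 3141 that covers counting error only (copies made by PCR were not separated). The log2 fold change was 4.29 ± 0.61 (SE; adjusted p = 0.000556 in limma), a fitted value that depends on the pseudocount and tool and ran from 2.43 to 6.20 over the alternatives. All 8 B cell markers rose in the same libraries, with a median log2 fold change of 4.35, among them Cd79a at 61.0 against 0.91 normalized counts. Except for Ighm and Cd22, these markers also passed the filter only through their old libraries. The part of B cell transcripts in this difference was not tested.

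The other 12 members with a value were below the filter, 8 of them low and 4 near zero. Near zero means at most 3 reads in every library, and applied to Tnfsf11, Tnfsf18, Tnfrsf11b and Tnfrsf25. A count of 0 in a library allows up to 3 reads, so differences among these 4 were not detectable at this depth. Of the 8 low genes, Tnfsf4 (OX40 ligand) had 12, 29 and 9 reads in old and 0, 0 and 2 in young libraries. Its pooled ratio was 29.7 (exact 95% interval 7.80 to 252, counting error only). Tnfsf15 (TL1A), a ligand that acts on T cells through DR3, had 14, 9 and 6 reads in old and 3, 3 and 3 in young libraries, a ratio of 3.83 (1.76 to 9.19). Tnfrsf18 (GITR) had 5, 1 and 6 reads in old and 0, 0 and 1 in young libraries, a ratio of 14.2 (2.11 to 609), and shares 27.2% of its exon bases with Gm16008 on the other strand. In a fit without the filter, where 21.1% of all genes passed, these 3 were called higher in old (limma adjusted p = 0.000604 for Tnfsf4, 0.0387 for Tnfsf15 and 0.0474 for Tnfrsf18). Tnfsf8 (CD30 ligand) leaned the other way, with 3, 3 and 1 reads in old and 11, 6 and 10 in young libraries, and was not called (adjusted p = 0.0713). Summed T and NK cell markers were 169 to 250 normalized counts in old and 93.0 to 108 in young libraries. Cd28 carried most of these sums, and the other 8 markers summed to 40.6 to 72.7 in old and 4.23 to 9.05 in young libraries. Trac was at 0 in all young libraries. The part of T cell and mast cell transcripts in the differences of Tnfsf4, Tnfsf15 and Tnfrsf18 was not tested. Tnfrsf4 (OX40), Tnfrsf9, Tnfsf10 and Tnfsf13b had 1 to 10 reads per library and overlapping ages.

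**Figure D5:**
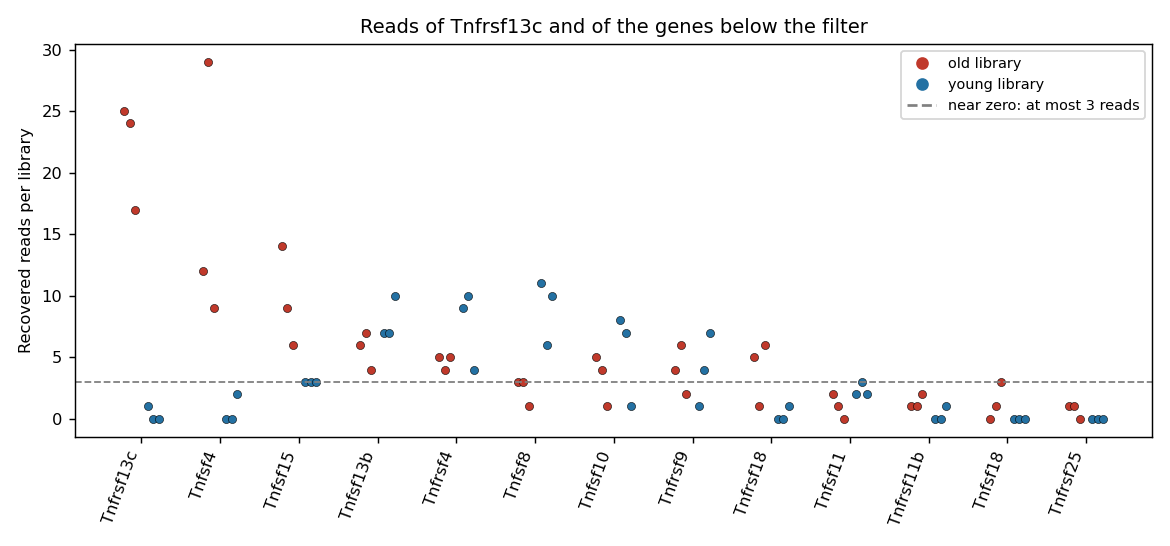
Recovered reads per library (red old, blue young) for Tnfrsf13c and the 12 genes below the filter; the dashed line marks 3 reads. Tnfrsf13c, Tnfsf4 and Tnfsf15 are higher in each old library than in any young one, Tnfsf8 is lower, and the last 4 genes stay at or under the line.

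Of 14 genes of the same superfamilies that carry other names 4 were tested, and 1 was called higher in old, Cd40, a receptor that answers T cell help. This is 25% of those tested, no more than the 35.5% called among all tested genes. Cd40 had 195, 179 and 173 normalized counts in old and 117, 117 and 164 in young libraries (log2 fold change 0.47 ± 0.15 SE, limma adjusted p = 0.0312). The call count was 0 without old replicate 1, old replicate 2 or young replicate 1, and 0 by DESeq2. The lymphotoxin receptor gene Ltbr (989 ± 80.05 and 849 ± 27.4), the death receptor gene Fas (111 ± 15.1 and 120.4 ± 13.9) and Relt (68.0 ± 0.91 and 79.1 ± 9.19) did not pass. Below the filter, Ltb (lymphotoxin beta) averaged 15.9 ± 5.06 in old against 1.24 ± 0.66 normalized counts in young, and Cd27 had 5.31 ± 2.80 and 0.28 ± 0.49 (SD, n = 3 each). Both are lymphocyte genes, and they were chosen here after their values were seen.

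Downstream of the receptors, 40 signalling and shedding genes were all tested, and 7 were higher, 7 lower and 26 not called, a share of 35.0% called beside 35.5% of all tested genes. The count is therefore no higher than that of genes at large, and the genes below are given as single values. The median log2 fold change was 0.03. Without old replicate 1 the number called was 9, and without both libraries numbered 3 it was 22. Of the 3 shedding genes 2 were lower in old, 66.7% of a very short list. Adam10, a sheddase of several superfamily members, had 1834, 1927 and 2047 normalized counts in old and 3237, 3482 and 3554 in young libraries. It fell by 0.82 on the log2 scale (± 0.07 SE, limma adjusted p = 2.14e-05). Rhbdf2, which encodes iRhom2, needed for maturation of the TNF convertase ADAM17 in macrophages, had 690, 699 and 754 in old and 1165, 1098 and 1178 in young libraries. It fell by 0.68 (± 0.07 SE, limma adjusted p = 6.00e-05). Adam17 itself, looked up afterwards, did not pass, with 3854 ± 204 and 3647 ± 295 normalized counts (SD, n = 3 each).

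Of 6 TRAF adaptors 2 were higher, 1 was lower and 3 did not pass (50% called, beside 35.5% of all tested genes). Of 7 kinase genes 1 was higher, 1 lower and 5 did not pass (28.6% called). The lower ones were Traf6 at -0.22 and Tab2 at -0.21, named after their values were seen. Traf1, an NF-kB target that binds TNF receptor 2 complexes, rose from 98.4 ± 13.1 in young to 255 ± 40.5 normalized counts in old (SD, n = 3 each; log2 fold change 1.36, limma adjusted p = 8.68e-05). Ikbkg (NEMO), the regulatory subunit of the IkB kinase, had 1651 ± 60.8 in old and 1048 ± 18.6 in young (log2 fold change 0.65, limma adjusted p = 4.24e-05). It shares 5.15% of its exon bases with G6pdx on the other strand, whose mean was 4008 in old and 3299 in young. The difference of means was 709 normalized counts for G6pdx, beside 603 for Ikbkg. The strand setting of the counting is not given, so reads of both genes cannot be told apart where they overlap. Of 10 ubiquitin enzyme and inhibitor genes 3 were higher, 1 was lower and 6 did not pass (40% called). Tnfaip3 (A20), an inhibitor of NF-kB signalling, had 1715 ± 68.4 and 1249 ± 13.3 normalized counts (log2 fold change 0.46, adjusted p = 0.000417 in limma). Its partner Tnip1 had 767 ± 45.2 and 1125 ± 29.2 (log2 fold change -0.55, adjusted p = 0.000247 in limma). Of the 7 NF-kB subunit and inhibitor genes 2 (28.6%) were lower in old and 5 did not pass, beside 35.5% called among all tested genes. The lower ones were Rel at -0.57 and Nfkb1 at -0.26, named after their values were seen. Of 7 death domain and cell death genes 1 was higher, 0 were lower and 6 did not pass (14.3% called). The called higher genes not yet named were Traf5 at 0.60, Otulin at 0.33, Birc3 at 0.27 and Mlkl at 0.26, also named after their values were seen.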

How the data were processed

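The authors deposited 1 normalized count (a signal, raw reads scaled by each library's size factor) per Ensembl gene and library. DESeq2 and mm10 are named in the submitters' processing notes; for aligner, counter, annotation and strand setting the entry is "not given in the sources used here". Reads were recovered by dividing each column by its smallest step, and 100% of values came out whole within 0.01 reads. Symbols, positions and merged exon lengths came from GENCODE M21 on GRCm38 (mm10) for 19917 of 19973 identifiers.

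Ages were compared with limma 3.58.1 (R 4.3.3, trend) on log2(normalized count + 1) over genes with a mean of at least 10, with Benjamini-Hochberg adjustment at 0.05; the procedure was tested on simulated data. It called 4183 genes, and edgeR 4.0.16 on the recovered reads called 4324. Libraries 1 and 2 of each age differed by 1.49 (old) and 1.76 (young) times the sampling noise, and those numbered 3 from them by 3.50 to 5.69 times. Alternatives were pseudocounts of 0.5 and 5, no filter and a mean of 50, quantile normalization, a replicate block, edgeR, DESeq2 1.42.0, and leaving out each library or both numbered 3. All members are named, and of other lists the up to 6 passing genes with the smallest p. The other called pathway genes, Csf1r, Trac, Adam17 and overlapping or neighbouring genes are named for context. Values of 1 other marker gene are left out. Members and lists were chosen with earlier results of these data known.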

Additional observations from a re-analysis of the deposited data

How the results depend on the processing

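Of 276 values of single members under the alternatives, 254 kept their direction and their side of the threshold, 15 were no longer past it, 2 were newly past it and 5 changed sign. Tnf, Tnfrsf1b, Tnfrsf11a, Tnfrsf21, Tnfrsf23 and Tnfrsf26 kept both under all 15 alternatives, although Tnfrsf1b was at 0.48 with quantile normalization. The sign changes concerned members that did not pass. Tnfrsf10b was 0.0523 with quantile normalization and ran from -0.15 to 0.0767 with each library left out, Tnfsf14 from -0.11 to 0.64 and Tnfrsf12a from -0.0165 to 0.34. Without both libraries numbered 3, Tnfsf14 was at 0.96 and Tnfrsf12a at 0.40, still not called (limma adjusted p = 0.060 and 0.066). The number of ligands called, and of ligands higher in old, was 5 without the filter, since more genes were tested. The median log2 fold change of receptors was 0.53 without the filter, 0.48 with quantile normalization, 0.40 without both libraries numbered 3, and 0.37 to 0.50 with each library left out; that of ligands was 0.31 to 0.48.

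Same-numbered libraries deviated in opposite directions (r = -0.38, -0.36 and -0.68 across genes). These deviations were taken from the mean of each group of 3, and the libraries numbered 3 stood apart in both groups. The correlations therefore cannot tell whether the numbers pair the samples. With the replicate block, 2643 of all tested genes were called, 8 members, 0 other family genes and 7 pathway genes (3 higher and 4 lower), and Tnfsf12, Tnfrsf1a and Tnfrsf14 were not called (limma adjusted p = 0.0641, 0.0808 and 0.126). Without both libraries numbered 3, 6960 of all tested genes were called, 3 other family genes and 22 pathway genes (11 higher and 11 lower). With each library left out, pathway calls ran from 9 to 18, their higher ones from 4 to 8, and other family calls from 0 to 2. Other family calls were also 5 without the filter, 2 at a mean of at least 50, 2 with quantile normalization and 0 by DESeq2. The cause was not tested. Among all genes the median shifted by at most 0.03 (log2) under any scaling. Members at 3 reads or fewer per library are beyond this depth.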

Other observations

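Tnf lies between the lymphotoxin genes Lta and Ltb on chromosome 17, and both of these were higher in old cultures, although from few reads. Ltb had 17.9, 19.7 and 10.2 normalized counts in old libraries against 2.01, 0.88 and 0.85 in young ones. Lta had 3.59, 0.85 and 2.54 in old and was at 0 in the 3 young libraries. In the limma fit without the filter their adjusted p was 0.00105 and 0.0376. Lymphocytes express both genes, and B cell markers were higher in the same libraries; their part in this was not tested.

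Some members lie next to each other. On chromosome 4, Tnfsf15 and Tnfsf8 lie 86.2 kb apart, and every old library had more of the first and less of the second than any young library. Both are low genes below the filter. The share of 47.5% without overlap between ages was counted over tested genes only and does not cover genes this low. In the limma fit without the filter the first was called (adjusted p = 0.0387) and the second was not (0.0713). Tnfrsf4 and Tnfrsf18 lie 9.55 kb apart, and the second alone was called higher in the fit without the filter; the difference between them was not tested. On chromosome 1, Tnfsf4 had 50 reads in all in old libraries, while Tnfsf18, 76.2 kb away, had 4.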
